A study of Mus musculus with 24 samples.

Results

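The effect of bile duct ligation that day 8 and day 15 had in common was measured in RNA of extracellular vesicles from mouse plasma, as the mean of the 2 ligated groups minus the mean of the 2 sham groups, with the genes that were lower after ligation at both days foremost. All 24 libraries of the series entered, 12 from ligated and 12 from sham-operated animals. The groups were bile duct ligation (BDL) at day 8, sham surgery at day 8, BDL at day 15 and sham surgery at day 15, with 6 male C57BL/6J mice each, 1 library per animal. All 24 animals were operated and none carried a genetic change per the labels, so sham surgery is the only baseline. Per the labels' protocols, blood was drawn by cardiac puncture and vesicles were precipitated from plasma with ExoQuick, a reagent that takes down particles of all cell types. The tissue label of each library reads liver and the site label reads extracellular vesicles. Hepatocyte transcripts were scarce in the sham libraries, where those for proteins that hepatocytes secrete summed to 51.6 to 163 CPM (counts scaled to a common library total) at day 8 and 76.4 to 200.2 CPM at day 15. Albumin (Alb) summed to 6689 counts in ligated and 65 in sham animals.

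Ligation of the bile duct stops the flow of bile from the liver, which brings cholestasis, inflammation and scarring by matrix that hepatic stellate cells lay down. Extracellular vesicles are membrane-bound particles that cells of many tissues shed into blood, so their RNA is a mixture of what blood cells, vessel walls and solid organs release. A transcript can therefore be lower in vesicles while the same gene is higher in the liver.

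After ligation, 144 of 4112 tested genes were lower and 292 higher on average over the 2 days (3.50% and 7.10% of the genes tested, edgeR's quasi-likelihood test with Benjamini-Hochberg adjustment, 995 genes at an unadjusted p under 0.05). All 144 lower genes had a fitted log2 fold change below 0 at each day, and 289 of the 292 higher genes, 7.03% of those tested, were above 0 at each day. Among all genes tested, 32.6% were below 0 at both days and 33.5% above. The average that called the genes is made of the same 2 fitted values, so these shared signs are a description. The lower genes were closer to 0 than the higher ones. Their median log2 fold change was -0.76, with a range from -2.91 to -0.32 and 29 genes at -1 or beyond, while the median of the higher genes was 1.02 and that of all genes tested was 0.00082. With scaling by library size alone, which leaves the composition of the libraries uncorrected, 621 genes were lower and 185 higher, and the median over all genes shifted to -0.24. All 144 lower genes kept their call under that scaling. Because the scaling moved values downward as a whole, this is no check of those calls. These are bulk libraries of vesicle RNA, in which fewer cells of a type, fewer vesicles per cell and less RNA per vesicle cannot be told apart.

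Single days showed few of the lower genes. At day 8 alone 15 genes were lower (0.365% of those tested) and 114 higher (2.77%), and at day 15 alone 44 were lower (1.07%) and 143 higher (3.48%). Of the 144 genes lower on average, 1 passed the test at each day separately (Pik3c2b) and 98 passed it at neither day. Of the 289 higher genes, 52 passed at each day and 102 at neither. No gene passed a test of the difference between the days in edgeR or limma, with 234 and 275 genes at an unadjusted p under 0.05. DESeq2 called 1, Chd9, with 227 at an unadjusted p under 0.05.

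The days share no animal, so genes called at one day could be read in the animals of the other. With the 12 libraries of day 8 fitted alone, 10 genes were lower, and 9 of them were tested at day 15. All 9 were below 0 there, where 51.9% of all tested genes were, with a median of -0.45. Of the 9, 1 (Pik3c2b) was itself called at day 15, where 1.25% of all tested genes were called lower. In the opposite direction, 37 genes were lower with day 15 fitted alone and 34 of them were tested at day 8. Of these, 32 were below 0 at day 8, against 49.3% of all tested genes, with a median of -0.41, and again Pik3c2b alone was called, where 0.259% of all tested genes were. The exceptions were Hip1 (0.07) and Pacs2 (0.41). Ets1, a transcription factor of lymphocytes and endothelium, came closest to a second such gene. It was lower at day 8 (-0.79, adjusted p = 0.0481), and at day 15 it was at -0.73 (SE 0.21, adjusted p = 0.0525, edgeR).

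Higher genes were read across the days in the same way. Of 74 genes higher at day 8 alone, 68 were tested at day 15, 61 were above 0 there and 19 were called higher, against 48.1% and 3.36% of all tested genes. The 7 with the opposite sign were Ccndbp1, Isg20, the neutrophil gene S100a8 and the globin genes Hba-a1, Hba-a2, Hbb-bs and Hbb-bt. Of 99 genes higher at day 15 alone, 67 were tested at day 8, 64 were above 0 and 19 were called, against 50.7% and 1.91% of all tested genes. Here the exceptions were Scd1, Tcp11l2 and Tsc22d3.

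**Figure D1:**
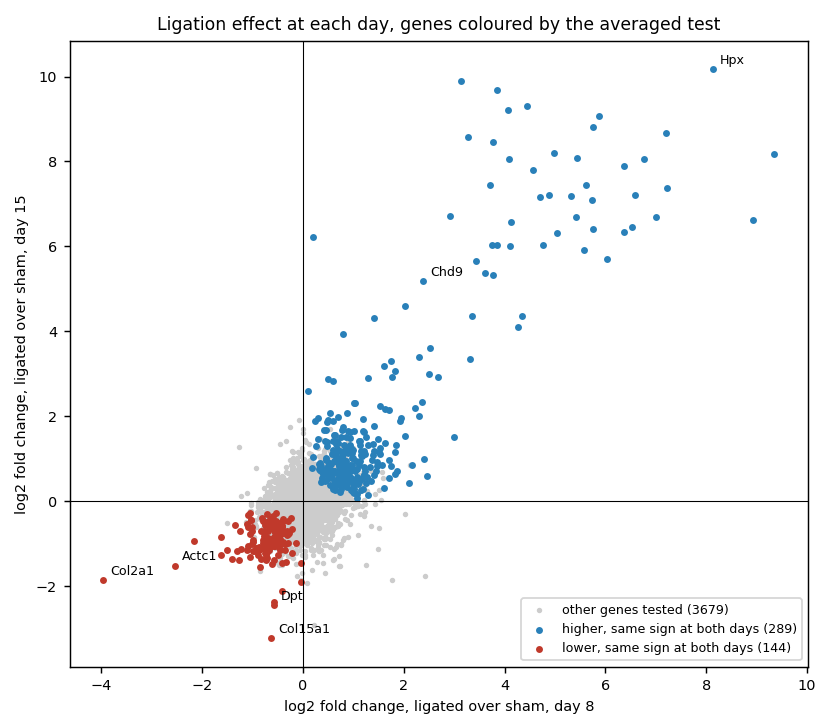
Log2 fold change of ligated over sham libraries at day 8 (horizontal axis) and day 15 (vertical axis) for 4112 tested genes, with the 289 higher genes in blue, the 144 lower genes in red and all others in grey. The red genes form a compact cloud near the origin, with Col2a1 and Col15a1 at its edges, while the blue genes stretch far up and right, with Hpx at 8.13 and 10.17.

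In single animals, of the 144 genes, between 118 and 141 lay below the median of the same-day sham group in each of the 12 ligated libraries, where between 47.9% and 51.1% of all tested genes did. For 58 genes all 12 ligated libraries lay below, for 56 genes 11 did, and the lowest number for any gene was 9. Since these libraries entered the test that called the genes, these counts are a description. The lower genes together made up 0.614% to 0.916% of the counts of ligated libraries at day 8 (median 0.823%), against 1.27% to 1.53% in sham libraries (1.48%). At day 15 they made up 0.658% to 0.817% in ligated libraries (0.748%), against 1.12% to 1.93% in sham libraries (1.496%). These shares are a description too, since the choice of the genes fixes their direction. Complete separation of the 6 ligated from the 6 sham libraries was seen for 6 of the 144 lower genes at day 8 and 21 at day 15, and for none at both. Over all 4112 tested genes, ligated libraries lay wholly below sham libraries for 14 (0.340%) at day 8 and 33 (0.803%) at day 15. Among the higher genes 70 were separate at day 8, 92 at day 15 and 27 at both. Over all tested genes, ligated libraries lay wholly above for 81 (1.97%) at day 8 and 98 (2.38%) at day 15. The counts among called genes are again a description, since the same libraries called them. The 6 lower genes of day 8 were Chd3, Klf2, Map4, Map4k2, Plcg1 and Selenow.

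Depth and composition differed between the libraries. Ligated animal 3 of day 8 stood apart, with the lowest scaling factor, 0.667, and the highest levels of its group in several hepatocyte genes. Without it 159 genes were lower and 287 higher, and 130 of the 144 lower genes kept their call. Total counts ran from 167939 to 937963 in ligated and from 101733 to 824640 in sham libraries at day 8, and from 315404 to 465744 in ligated and from 157133 to 351201 in sham libraries at day 15. At day 8 the libraries numbered 4 to 6 of both groups were deeper than those numbered 1 to 3. The scaling factors ran from 0.667 to 1.02 for ligated and from 1.02 to 1.16 for sham libraries at day 8, and from 0.899 to 0.993 and from 0.943 to 1.24 at day 15. Genes higher after ligation took 7.55% to 37.1% of the counts of ligated libraries at day 8, against 4.24% to 5.92% in sham libraries, and 7.87% to 18.8% against 4.52% to 8.06% at day 15. Reads assigned to a single gene, Lars2, took 31.6% to 48.3% of the counts of ligated libraries at day 8, against 45.4% to 51.6% in sham libraries. At day 15 they took 41.3% to 52.7% in ligated and 45.2% to 51.4% in sham libraries. Ribosomal RNA was not depleted, and whether these reads come from Lars2 mRNA was not tested. Within the shallower libraries of day 8, 132 of the 144 lower genes were below 0 on the log2 scale (median -0.66), and within the deeper ones 140 were (median -0.62). Both held for 128 of them, which is a description, since all these libraries entered the test that called the genes. Leaving out the 3 deeper libraries of each day 8 group lowered the count of lower genes to 74, 53 of them among the 144.

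Of the 144 lower genes, 35 (24.3%) belonged to any of 30 gene lists of cell types and pathways, as did 63 of the 289 higher genes (21.8%) and 313 of the 4112 tested genes (7.61%). The lists were chosen with earlier results of these data known, so nothing is read from these shares. The lists with the most lower members were B cells (8 of 16 tested), receptor signalling through phospholipase C, PI3 kinase and MAP kinase (7 of 30), collagens (6 of 11), chromatin remodellers and modifiers (5 of 27) and heart muscle (3 of 7). Their median log2 fold changes were -0.71, -0.24, -0.87, -0.23 and -0.90. Among all tested genes 3.50% were lower. Ribosomal protein genes (38 tested, median 0.03) and platelet genes (21 tested, median 0.41) had no member called in either direction by edgeR, DESeq2 or limma. At an unadjusted p under 0.05 in edgeR, 1 ribosomal protein gene was lower and 3 platelet genes were higher. At both days 16 platelet genes were above 0 and 0 below, and 7 ribosomal protein genes were above and 5 below. Over all tested genes 33.5% were above and 32.6% below.

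**Figure D2:**
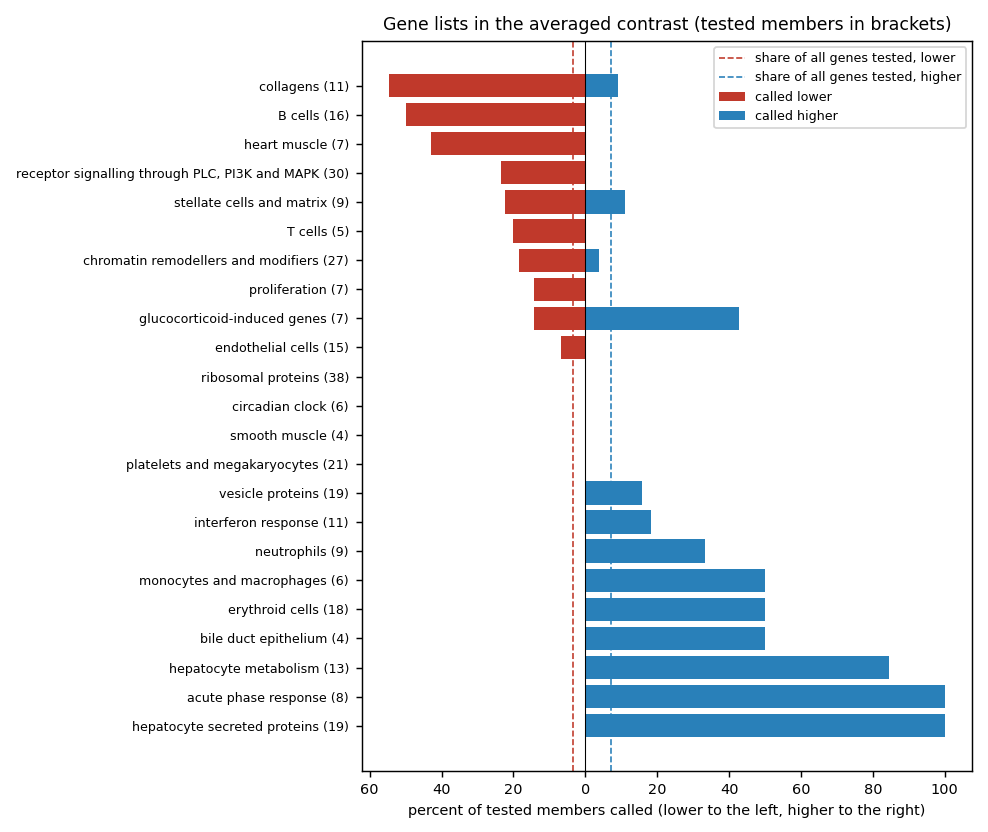
Share of the tested members of each gene list, in percent, that were called lower (red, to the left) or higher (blue, to the right) in the contrast averaged over both days, for lists with at least 4 tested members. Dashed lines mark the shares among all tested genes, 3.50% and 7.10%. Collagens, B cells and heart muscle have the longest red bars, and the hepatocyte and acute phase lists are blue throughout.

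Pik3c2b was the single gene that was lower after ligation at each day taken alone. It encodes a class II phosphoinositide 3-kinase, which phosphorylates membrane lipids (ENSMUSG00000026447, GRCm38 chromosome 1, 133045667 to 133108687, plus strand, protein coding). At day 8 its level was 15.1 to 47.5 CPM in ligated libraries (median 29.5), against 38.7 to 95.6 CPM in sham libraries (65.8). At day 15 it was 12.97 to 34.9 CPM in ligated libraries (16.8), against 35.4 to 55.6 CPM in sham libraries (41.6). The groups were separate at day 15 and overlapped at day 8, where 5 of 6 ligated libraries lay below every sham library. Averaged over both days it fell by 1.08 on the log2 scale (SE 0.20, adjusted p = 0.000431, edgeR), with -1.10 at day 8 (adjusted p = 0.0175) and -1.06 at day 15 (adjusted p = 0.0313).

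Of the 30 tested genes of receptor signalling, 7 were lower, against 3.50% of all tested genes, with a median of -0.24 over the list. Plcg1, the phospholipase that makes inositol trisphosphate, fell by 0.67 (SE 0.19, adjusted p = 0.019). Its level at day 8 was 20.8 to 35.9 CPM in ligated libraries (median 25.3), against 38.2 to 71.5 CPM in sham libraries (46.0), without overlap. At day 15 the ligated libraries had 26.1 to 64.8 CPM (40.2), against 34.7 to 80.5 CPM in sham libraries (37.8), with overlap, and the fitted values were -1.05 at day 8 and -0.28 at day 15. Itpkb, the kinase that uses up inositol trisphosphate, fell by 0.78 (SE 0.18, adjusted p = 0.00556), with -0.70 at day 8 and -0.87 at day 15. Itpr3, a receptor for inositol trisphosphate that lets calcium out of the endoplasmic reticulum, fell by 0.74 (SE 0.23, adjusted p = 0.0385). Nfatc1, a transcription factor that calcium signals activate, fell by 0.56 (SE 0.18, adjusted p = 0.0457). Pea15a, an adaptor that binds ERK in the cytoplasm, fell by 0.66 (SE 0.15, adjusted p = 0.00414), with 5 of 6 ligated libraries below every sham library at each day. Map4k2, a kinase upstream of JNK, fell by 0.73 (SE 0.18, adjusted p = 0.0105). In all, 22 of the 30 were below 0 at both days, against 32.6% of all tested genes. Of the 30, 0 were higher (0 also at an unadjusted p under 0.05, and by DESeq2 and limma). Plcg1 lost its call without the deeper libraries of day 8 (-0.61, adjusted p = 0.218), and 2 members were lower with every library thinned to the smallest total.

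Ehd2 and Arap3 were lower genes that no list held. Ehd2 encodes an ATPase of the necks of caveolae, the membrane pits abundant in endothelium, fat and muscle (ENSMUSG00000074364, chromosome 7, 15946958 to 15967567, minus strand). It had 37.1 to 86.1 CPM in ligated libraries at day 8 (median 69.5), against 73.6 to 149 CPM in sham libraries (110). Its day 15 level was 31.9 to 85.5 CPM in ligated libraries (61.3), against 94.0 to 221 CPM in sham libraries (152). The groups were apart at day 15, and at day 8 the upper ligated libraries reached into the sham range. Ehd2 fell by 1.09 (SE 0.18, adjusted p = 0.000167) and kept its call in every alternative run and without any 1 library (-1.16 to -1.01). Arap3, a GTPase-activating protein needed in endothelium for vessel growth (chromosome 18, 37972628 to 37998969, minus strand), fell by 1.06 (SE 0.21, adjusted p = 0.00134). At day 15 its ligated libraries held 28.5 to 54.1 CPM (43.2), against 68.4 to 204 CPM in sham libraries (101), without overlap. At day 8 the ranges overlapped broadly, at 23.3 to 79.2 CPM after ligation (55.1) and 28.7 to 140 CPM after sham surgery (77.0).

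Of 15 tested endothelial markers 1 was lower, Kdr, the VEGF receptor (-0.64, SE 0.19, adjusted p = 0.0319), against 3.50% of all tested genes. At both days 11 were below 0, against 32.6% of all tested genes, and the median was -0.34. At an unadjusted p under 0.05 in edgeR, 5 were lower. None was higher by edgeR, DESeq2 or limma, or at an unadjusted p under 0.05. The defining markers Pecam1 (-0.13, SE 0.18), Cdh5 (-0.33, SE 0.32) and Tek (-0.41, SE 0.29) had adjusted p of 0.722, 0.568 and 0.421. Summed over the list, ligated libraries of day 8 had 1289 to 1809 CPM, against 947 to 2094 CPM in sham libraries, and those of day 15 had 902 to 1616 CPM, against 1001 to 3826 CPM. The call of Kdr ended in 8 of 24 refits that each left out 1 library (-0.72 to -0.56). Sparcl1, an extracellular glycoprotein of vessels, fell by 1.09 (SE 0.27, adjusted p = 0.0084), and all 12 ligated libraries lay below their day's sham median. Bcam, a laminin receptor of red cells and vessels, fell by 1.18 (SE 0.36, adjusted p = 0.0338) and was not called in 9 of 23 such refits (-1.42 to -1.03).

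Of 11 tested collagen genes 6 were lower and 1 higher, and 9 were below 0 at both days. Over all tested genes the shares were 3.50%, 7.10% and 32.6%. Col1a1, the main chain of the type I collagen of scar, skin and bone (ENSMUSG00000001506, chromosome 11, 94936224 to 94953042, plus strand), had 28.7 to 137 CPM in ligated libraries at day 8 (median 94.4), against 86.0 to 275 CPM in sham libraries (130). At day 15 the ligated libraries had 19.4 to 105 CPM (56.4), against 115 to 208 CPM in sham libraries (173). The groups were separate at day 15, and at day 8 3 of 6 ligated libraries lay below every sham library. Col1a1 fell by 1.20 (SE 0.25, adjusted p = 0.00211) and kept its call under every alternative run, its partner chain Col1a2 fell by 0.88 (SE 0.24, adjusted p = 0.0153), and the fibrillar collagen gene Col3a1 was at -0.79 (adjusted p = 0.138).

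Col15a1 and the type VI collagen gene Col6a2, whose proteins border basement membranes, had lower fitted values at day 15 than at day 8. No test called this difference between days. Col15a1 (chromosome 4, 47208161 to 47313167, plus strand) had 6.39 to 32.9 CPM in ligated libraries at day 8 (16.3), against 17.8 to 42.9 CPM in sham libraries (29.5). Its day 15 values were 0 to 12.7 CPM in ligated libraries (5.04), against 30.9 to 113 CPM in sham libraries (34.4). The gap at day 15 was complete, with 2 ligated libraries at 0. Its averaged fall was 1.92 (SE 0.34, adjusted p = 0.000375), made of -0.62 at day 8 (adjusted p = 0.541) and -3.22 at day 15 (adjusted p = 0.000159). Col6a2 fell by 1.26 (SE 0.31, adjusted p = 0.00919), with -0.41 at day 8 and -2.11 at day 15, and Col6a1 by 0.87 (SE 0.29, adjusted p = 0.0486). The basement membrane collagens Col4a1 (-0.52) and Col4a2 (-0.49) had adjusted p of 0.144 and 0.328. Col18a1, a basement membrane collagen whose end fragment is endostatin, went the opposite way, with a rise of 1.27 (SE 0.36, adjusted p = 0.0195, edgeR), and was not called by limma.

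Col2a1, the collagen of cartilage, had the largest change among called lower genes and fell by 2.91 (SE 0.62, adjusted p = 0.00242; ENSMUSG00000022483, chromosome 15, 97975602 to 98004695, minus strand). It rested on 13 counts in 12 ligated against 126 in 12 sham libraries. At day 8 it had 0 to 14.4 CPM in ligated libraries (median 1.60), against 3.52 to 65.8 CPM in sham libraries (36.0). Day 15 gave 0 to 22.2 CPM in ligated libraries (0), against 4.27 to 39.8 CPM in sham libraries (11.8). The highest ligated library reached above the low end of the sham libraries at each day, and 7 of 12 ligated libraries were at 0 while every sham library held counts. Col2a1 was not called without the deeper libraries of day 8 (-2.16, adjusted p = 0.10).

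Other lower genes encode smaller matrix proteins. Dpt, which encodes dermatopontin, a protein that binds collagen fibrils, fell by 1.51 (SE 0.34, adjusted p = 0.00368), with -0.57 at day 8 and -2.45 at day 15. Crispld2, a secreted protein of mesenchyme, fell by 1.48 (SE 0.38, adjusted p = 0.0109), and at day 15 all ligated libraries (0 to 12.7 CPM) lay below the sham libraries (13.3 to 72.4 CPM). It was not called by limma (adjusted p = 0.0582). Sparc, a collagen-binding glycoprotein of bone and vessels, fell by 0.76 (SE 0.20, adjusted p = 0.0118), and at day 15 the ligated libraries had 41.5 to 149 CPM (111), against 164 to 235 CPM in sham libraries (201). Fbn1, the microfibril protein fibrillin, fell by 0.86 (SE 0.28, adjusted p = 0.0423), and Ccdc80, a matrix protein of fat and skin, by 1.04 (SE 0.33, adjusted p = 0.0424). Without 1 library at a time, Fbn1 was not called in 12 of 24 refits (-0.97 to -0.74) and Ccdc80 in 13 (-1.22 to -0.64). In the list of stellate cells and matrix, 2 of 9 tested genes were lower and 1 higher, against 3.50% and 7.10% of all tested genes. The higher one was Tgfbi, a matrix protein that TGF-beta induces, which rose by 1.50 (SE 0.17, adjusted p = 4.93e-07) and was separate between the groups at both days.

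**Figure D3:**
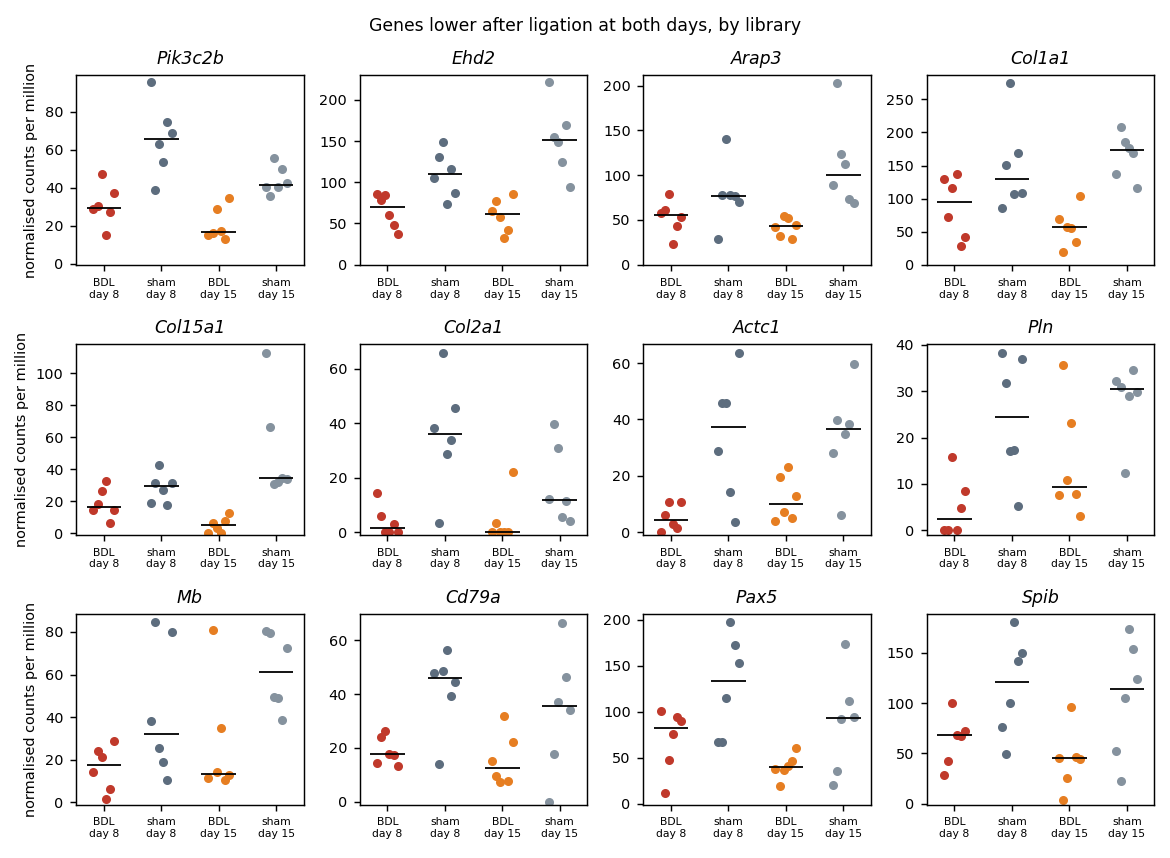
CPM of 12 lower genes in each of the 24 libraries, with ligated libraries (red at day 8, orange at day 15) to the left of the sham libraries of the same day (grey) and bars at the medians. Pik3c2b, Ehd2, Arap3, Col1a1 and Col15a1 are separate between the groups at day 15, and the heart and B cell genes overlap while their medians are lower after ligation.

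Of 7 tested genes of heart muscle, 3 were lower by edgeR and DESeq2 and 2 by limma. All 7 were below 0 at each day, against 32.6% of all tested genes, with a median of -0.90 over the list. In edgeR 3.50% of all tested genes were lower. Heart genes outside these 7 went both ways under a filter on the mean level over all libraries. There Tnni3 fell by 2.16 (adjusted p = 0.015) and Myh7 rose by 3.43 (adjusted p = 0.00409, both edgeR). Actc1, the actin of heart muscle fibres (ENSMUSG00000068614, chromosome 2, 114047282 to 114053548, minus strand), had 0 to 10.8 CPM in ligated libraries at day 8 (median 4.39), against 3.56 to 63.6 CPM in sham libraries (37.2). At day 15 ligated libraries had 3.82 to 23.2 CPM (9.94), against 6.18 to 59.8 CPM in sham libraries (36.6). All 12 ligated libraries lay below the sham median of their day, although 1 low sham library at each day kept the ranges from separating. Actc1 fell by 2.03 (SE 0.42, adjusted p = 0.00156, edgeR), and limma did not call it (-1.63, adjusted p = 0.0976).

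The bases before the RefSeq start of Actc1 are shown because it had the largest fall in the heart list and its window holds a CArG box, the motif that serum response factor binds. The gene for that factor, Srf, was among the 144 lower genes (-0.86, SE 0.24, adjusted p = 0.0202), and its part in the level of Actc1 was not tested. Capitals mark the CArG box, which begins 47 bases before the start, in the 250 bases at chr2:114052876-114053125, minus strand, from RefSeq for GRCm38.p6. The GENCODE model of Actc1 begins further upstream, at 114053548, so these bases lie within that model. A CArG box, searched on both strands from 250 bases before to 50 after the RefSeq start, was found in 1.57% of 27025 RefSeq promoters and in 1.76% of the 3185 promoters of tested genes. It was in 4 of the 108 lower genes with an entry, Actc1 and Fcer2a among them, and since entries exist for 75.0% of the lower genes, no comparison was made.
Actc1: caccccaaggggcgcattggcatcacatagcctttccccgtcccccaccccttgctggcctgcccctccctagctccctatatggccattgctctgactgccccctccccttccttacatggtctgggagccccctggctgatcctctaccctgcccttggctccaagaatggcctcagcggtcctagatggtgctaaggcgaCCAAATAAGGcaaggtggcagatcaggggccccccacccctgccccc

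Pln, which encodes phospholamban, the brake on the calcium pump of heart muscle, had 0 to 15.8 CPM in ligated libraries at day 8 (2.39), against 5.34 to 38.2 CPM in sham libraries (24.5). Its day 15 values were 3.17 to 35.6 CPM in ligated libraries (9.30), against 12.4 to 34.7 CPM in sham libraries (30.4). The ranges overlapped at both days, and on average Pln fell by 1.55 (SE 0.41, adjusted p = 0.014). Myl2, a light chain of ventricular myosin, fell by 1.24 (SE 0.38, adjusted p = 0.0358), a call that ended in 11 of 24 refits without 1 library (-1.49 to -1.07). The tested members that were not called were Tnnt2 (-0.90), Myh6 (-0.86), Ttn (-0.84) and Atp2a2 (-0.60), with adjusted p between 0.181 and 0.22. Mb, the oxygen store myoglobin of heart and skeletal muscle, was the 1 tested gene of the skeletal muscle list and fell by 1.33 (SE 0.40, adjusted p = 0.0286). Its call ended without ligated animal 4 or 5 or sham animal 2 or 6 of day 8, or ligated animal 5 of day 15 (-1.23 to -1.13). Other skeletal muscle markers were scarce in all libraries, with 5 counts of Acta1 in ligated and 17 in sham animals, and 3 and 4 counts of Myh4. Summed over the heart list, the ligated libraries of day 8 had 65.5 to 632 CPM, against 231 to 879 CPM in sham libraries, and those of day 15 had 193 to 1137 CPM, against 210 to 1360 CPM. Without the deeper libraries of day 8, 1 member of the heart list was lower, 1 was higher and the median was -0.51.

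Of 16 tested genes of B cells 8 fell and 15 were below 0 at both days, against 3.50% and 32.6% of all tested genes. The median of the list was -0.71. The called members were Cd79a and Cd79b, the signalling chains of the B cell receptor, Fcer2a, the low-affinity IgE receptor CD23, Cd74, the invariant chain of MHC class II, and the transcription regulators Pax5, Ebf1, Spib and Aff3. Pax5, which keeps B cells in their lineage (ENSMUSG00000014030, chromosome 4, 44524757 to 44710487, minus strand), had 12.1 to 100.5 CPM in ligated libraries at day 8 (median 82.6), against 66.9 to 198 CPM in sham libraries (134). At day 15 it had 19.4 to 60.2 CPM in ligated libraries (39.4), against 20.1 to 174 CPM in sham libraries (93.3). All 12 ligated libraries were below the sham medians, within overlapping ranges. Pax5 fell by 1.01 (SE 0.27, adjusted p = 0.0165) and Spib by 1.08 (SE 0.30, adjusted p = 0.0179).

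Cd79a had 13.2 to 26.4 CPM in ligated libraries at day 8 (17.7), against 14.1 to 56.2 CPM in sham libraries (46.2). Day 15 gave 7.21 to 31.9 CPM in ligated libraries (12.5), against 0 to 66.6 CPM in sham libraries (35.6). Here 1 sham library of day 8 and 2 of day 15 lay within the ligated range or below it. Cd79a fell by 1.18 (SE 0.32, adjusted p = 0.0159). Its call ended without the deeper libraries of day 8 (adjusted p = 0.288) and without day 15 sham animal 4 (adjusted p = 0.054). Fcer2a fell by 1.44 (SE 0.42, adjusted p = 0.025), and its call ended without day 8 sham animal 5 or day 15 sham animal 4, 5 or 6 (-1.37 to -1.29). Cd74, with at least 61.3 CPM in every library, fell by 0.65 (SE 0.17, adjusted p = 0.014).

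The summed level of the B cell list was 611 to 1080 CPM in ligated libraries at day 8 (median 830), against 855 to 1833 CPM in sham libraries (1446), and 321 to 955 CPM in ligated libraries at day 15 (584), against 587 to 1636 CPM in sham libraries (1099). Members that did not pass included Blk, Blnk, Bank1, Cd37, Ralgps2 and St6gal1, at -0.78 to -0.55, and Btk, at 0.04. The number of lower members was 1 without the deeper libraries of day 8 (median -0.82), 1 with all libraries thinned to the smallest total (-0.81), and 5 without day 15 sham animal 4 or 5. Of 5 tested members of the T cell list 1 was lower, Plcg1, and the median was -0.35. Cd2, a lymphocyte adhesion receptor that no list held, fell by 1.39 (SE 0.39, adjusted p = 0.0187), and its call ended without day 15 sham animal 6 (-1.25, adjusted p = 0.0515).

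**Figure D4:**
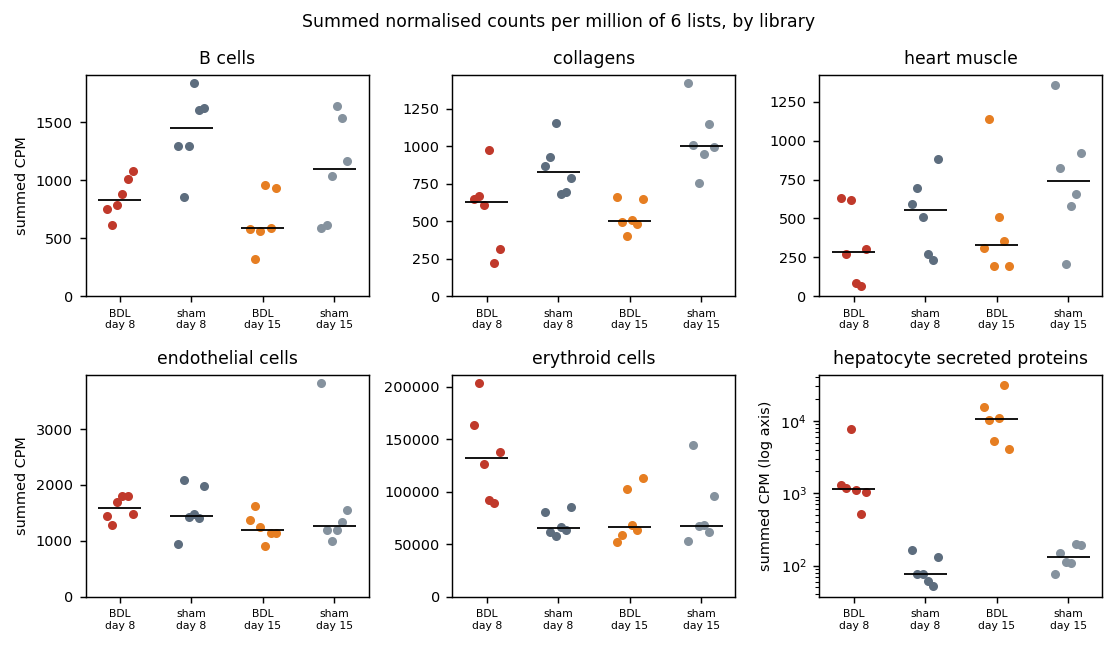
Summed CPM of 6 gene lists in each library, ligated left of sham at each day, with bars at the medians and a log axis for hepatocyte genes. The B cell and collagen medians are lower after ligation at both days, with the collagen sums separate at day 15, the endothelial sums overlap, the erythroid sums are separate at day 8 and overlap at day 15, and the hepatocyte sums are separate at both days.

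Sox4, a transcription factor of early lymphocytes and many progenitors, fell by 1.32 (SE 0.36, adjusted p = 0.0177), with all 12 ligated libraries below the sham medians, and was not called by limma (adjusted p = 0.0845) or without the shallower libraries of day 8. Hvcn1, the voltage-gated proton channel of B cells and phagocytes, fell by 1.06 (SE 0.30, adjusted p = 0.019), a call lost without the deeper libraries of day 8, as were those of Cd79a, Spib, Pax5 and Cd74. Kif21b, a kinesin motor of lymphocytes and neurons, fell by 1.02 (SE 0.24, adjusted p = 0.00579). Its day 8 level was 15.8 to 91.1 CPM in ligated libraries (46.2), against 77.4 to 150 CPM in sham libraries (102), and 5 of 6 ligated libraries lay below every sham library. Cracr2b, a calcium sensor that regulates calcium entry, fell by 1.23 (SE 0.35, adjusted p = 0.0193), a call lost without day 15 sham animal 1 (-1.02, adjusted p = 0.0533). Ankrd50, which acts in endosomal recycling, fell by 1.13 (SE 0.28, adjusted p = 0.00919), with -1.12 at day 8 and -1.14 at day 15.

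Of 27 tested chromatin remodellers and modifiers 5 were lower and 1 higher, with 16 below 0 at both days. The shares among all tested genes were 3.50%, 7.10% and 32.6%. Chd3, an ATPase of the NuRD repressor complex (ENSMUSG00000018474, chromosome 11, 69343273 to 69369406, minus strand), had 21.5 to 57.5 CPM in ligated libraries at day 8 (median 48.0), against 64.9 to 109 CPM in sham libraries (71.4). At day 15 it had 26.7 to 69.7 CPM in ligated libraries (44.5), against 53.1 to 125 CPM in sham libraries (91.6). The groups were separate at day 8 and overlapped slightly at day 15. Chd3 fell by 0.85 (SE 0.18, adjusted p = 0.00203), the related gene Chd4 by 0.52 (SE 0.13, adjusted p = 0.0116), and the SWI/SNF ATPase Smarca4 by 0.67 (SE 0.16, adjusted p = 0.00505). Kmt2d, a histone methyltransferase of enhancers, fell by 0.63 (SE 0.16, adjusted p = 0.0114), and Arid1b, a SWI/SNF subunit, by 0.54 (SE 0.16, adjusted p = 0.0323). With libraries thinned to the smallest total, where 40 of 1033 tested genes were lower, none of this list was called lower by edgeR, against 5 by edgeR, 5 by DESeq2, 6 by limma and 10 at an unadjusted p under 0.05 in the full libraries.

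The relative of these genes, Chd9, went the other way. It encodes a chromodomain helicase (chromosome 8, 90828352 to 91054516, plus strand) and had 171 to 1072 CPM in ligated libraries at day 8 (median 326), against 47.8 to 106 CPM in sham libraries (80.5). At day 15 it reached 972 to 5948 CPM in ligated libraries (2441), against 42.4 to 115 CPM in sham libraries (76.7). The groups did not overlap at either day, and the rise was 3.77 (SE 0.31, adjusted p = 2.28e-09). Of the proliferation list (7 tested) and the list of genes that glucocorticoids induce (7 tested), 1 member each was lower. Mcm3, a subunit of the replicative helicase, fell by 0.97 (SE 0.32, adjusted p = 0.0477), with -0.04 at day 8 and -1.89 at day 15, and was not called in 16 of 24 leave-one-out refits (-1.10 to -0.83). Txnip, an inhibitor of thioredoxin that glucocorticoids induce, fell by 0.41 (SE 0.12, adjusted p = 0.0338), while the glucocorticoid-induced genes Fkbp5 and Ddit4 rose by 1.43 (SE 0.33, adjusted p = 0.00483) and 1.34 (SE 0.31, adjusted p = 0.00493). The call of Txnip ended in 10 of 24 such refits (-0.45 to -0.37).

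**Figure D5:**
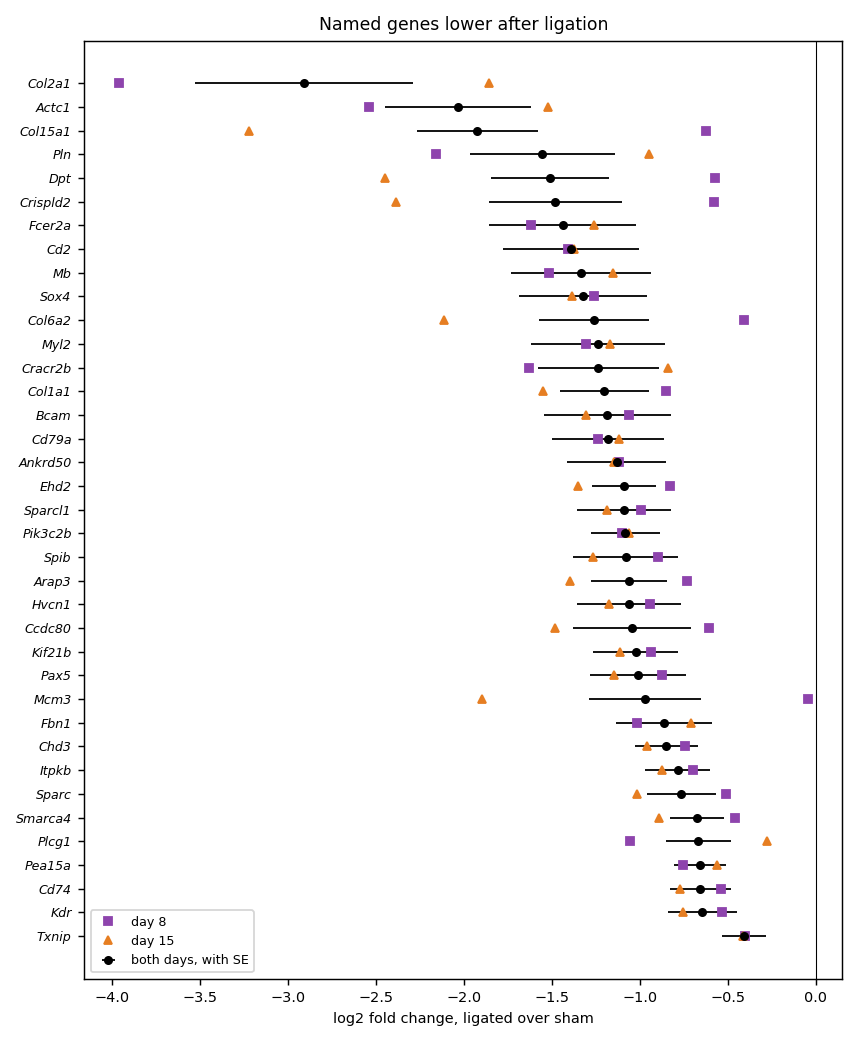
Log2 fold change of ligated over sham libraries for 37 named lower genes, averaged over both days (black, with the standard error) and at day 8 (purple squares) and day 15 (orange triangles). All symbols lie left of 0; Col2a1, Actc1 and Pln lie further left at day 8, and Col15a1, Dpt, Crispld2, Col6a2 and Mcm3 further left at day 15.

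The median coding length of the lower genes was 2374.5 bases and their median number of exons 12.5, against 1464 bases and 10 exons for all tested genes and 1308 bases and 8 exons for the higher genes, in the GENCODE M21 models of GRCm38, which held all 144 lower and all 289 higher genes. Per kilobase of transcript, their median level was 13.2 CPM, against 14.6 CPM for all tested genes. These values describe the lists and were not tested, and the part of coding length in the calls was not tested.

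Among the higher genes the shared effect was led by hepatocyte transcripts. All 19 tested genes for secreted hepatocyte proteins, all 8 acute phase genes and 11 of 13 metabolic genes rose, with medians of 6.04, 5.67 and 2.39. Since counts in ligated animals are enough to pass the filter, the tested members are not the full lists, which had 28, 18 and 30 members in the table. Hpx, the heme carrier hemopexin, had 2667 counts in all ligated and 2 in all sham animals, a ratio of 1239 (95% exact interval 343 to 10240). The plasma protein gene Itih3 and the methyltransferase gene Gnmt had 0 sham counts and were at least 122-fold and 69.4-fold higher, against a floor of 3 counts over the sham libraries. The fibrinogen chain genes Fgb (613 counts against 1) and Fgg (468 against 2) had ratios of 570 (102 to 22541) and 217 (59.9 to 1801).

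Blood cell genes among the higher ones were fewer. Ccr2, the receptor that recruits inflammatory monocytes, rose by 1.95 (SE 0.30, adjusted p = 4.57e-05), with nearly equal values at day 8 (1.94) and day 15 (1.96). It had 15.8 to 57.5 CPM in ligated libraries at day 8 (median 51.2), against 2.86 to 38.2 CPM in sham libraries (9.71), and 25.3 to 68.8 CPM in ligated libraries at day 15 (46.6), against 5.79 to 22.1 CPM in sham libraries (10.3). The groups were separate at day 15. Lcn2, an iron-sequestering protein of neutrophils and inflamed liver, rose by 2.25 (SE 0.45, adjusted p = 0.00127). Of 9 tested neutrophil genes 3 rose and 4 were above 0 at both days, with a median of 1.77 at day 8 and -0.29 at day 15. Of 6 tested genes of monocytes and macrophages 3 rose and 4 were above 0 at both days, with medians of 0.68 and 0.64. Among all tested genes 7.10% rose and 33.5% were above 0 at both days. Of 18 erythroid genes 9 rose on average, among them Epb42, which encodes a protein of the red cell membrane (1.48, SE 0.34, adjusted p = 0.00419). The list had 11 genes above 0 at both days, and its median was 1.12 at day 8 and 0.26 at day 15. Hbb-bs was among the 9, although it was below 0 with day 15 fitted alone. The list's summed level was 89417 to 203706 CPM in ligated libraries at day 8 (median 132041), against 57748 to 85404 CPM in sham libraries (65209). At day 15 it was 52040 to 113246 CPM in ligated libraries (66147), against 53237 to 144788 CPM in sham libraries (67445.5). The part of this blood cell RNA in the lower genes was not tested.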

How the data were processed

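RNA of plasma extracellular vesicles was sequenced for 24 mice from libraries made without depletion of ribosomal RNA or selection of polyadenylated RNA, per the labels' protocols. The authors deposited 1 table of expected counts per gene, all whole numbers. The submitters' processing notes name STAR, RSEM and the build hg38, while the gene identifiers are mouse Ensembl identifiers; no source used here gives their versions or who rounded the values. Of 21960 identifiers, 21860 were found in GENCODE M21 (GRCm38), which gave positions.

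Counts were scaled by TMM and genes kept by filterByExpr (minimum count 10, minimum total 15). A model of 4 group means was fitted and tested in edgeR 4.0.16 by quasi-likelihood (R 4.3.3), with Benjamini-Hochberg adjustment over all 4112 genes and a threshold of 0.05. DESeq2 1.42.0 and limma 3.58.1 (voom) were alternatives. The procedure was tested on simulated counts. CPM values are TMM-normalised, intervals cover counting error only, and refits without 1 library used the same model. No library pair of a group agreed within sampling noise (smallest chi-square per degree of freedom 1.77 over 60 pairs).

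Named genes were the 25 lower and 12 higher called genes with the largest changes and the same sign at both days, at a mean of 5 CPM or more, up to 3 called members per list, and lower genes called at each day. Genes outside this rule were chosen after their values were seen. The members and lists were chosen with earlier results of these data known.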

Additional observations from a re-analysis of the deposited data

Results flagged for a closer look

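In 34 of 292 gene-by-group sets of 6 libraries, 1 library stood far from the other 5, measured as its gap to the nearest library over the range of the group and set against Dixon's critical value. Chance gives about 1 in 20 such sets.

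Among lower genes the share was 0.647 for Col2a1 in day 8 sham libraries, where animal 2 was low, and 0.712 in day 15 ligated libraries, where animal 6 was high. In day 8 sham libraries animal 2 was also low in Cd2 (0.902) and Cd79a (0.718), and animal 3 was high in Chd3 (0.662). In day 15 sham libraries animal 3 was low in Pln (0.811), animal 4 low in Smarca4 (0.717) and animal 1 high in Cracr2b (0.636). In ligated libraries, animal 5 of day 8 was low in Crispld2 (0.638), and at day 15 animal 2 was low in Fcer2a (0.778) and high in Sox4 (0.808), while animal 3 was low in Col6a2 (0.643).

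Among higher genes, ligated animal 3 of day 8 was the high library for Chd9 (0.626), Trf (0.678), Fga (0.644), Serpina3k (0.683), Bhmt (0.684) and Apob (0.629), and the low one for Ccr2 (0.721). Ligated animal 4 of day 8 was low in Tyrobp (0.717), and at day 15 ligated animal 2 was low in Il1b (0.664) and animal 3 high in Epb42 (0.694). Sham animal 1 of day 8 was low in Irf7 (0.662) and Ddit4 (0.908) and high in Pzp (0.793). A share of 1 marked hepatocyte genes with counts in a single sham library, which was animal 5 of day 15 for Fga, Fgb, Pigr, Pzp and Hpx, animal 3 of day 15 for Bhmt, animal 6 of day 8 for Mat1a and Apob, and animal 2 of day 8 for Hpx.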

How the results depend on the processing

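With 144 genes lower and 292 higher as reported (144 genes lower after ligation at both days and 289 genes higher after ligation at both days, given in brackets below), scaling by library size alone gave 621 and 185 (619 and 183), no filter on low counts 224 and 817 (221 and 809), a minimum count of 30 97 and 120 (97 and 117), thinning to the smallest library 40 and 87 (40 and 87), and leaving out the day 8 libraries 4 to 6 74 and 268 (74 lower at both days). Where fewer genes were tested, 1061 at the higher minimum count and 1033 after thinning, fewer could be called; the other causes were not tested. With a replicate block for same-numbered animals, 191 were lower, 132 of the 144 among them, and 345 higher (190 and 341 at both days). The named genes Ccdc80 and Irf7 lost their call with that block. Same-numbered animals correlated at 0.165 to 0.327 at day 8 and -0.031 to 0.113 at day 15, with 3 and 1 of 6 best matched to their own number. Only at day 8 were all values positive, so the numbers were not taken as pairs over both days. Leaving out 1 library gave 105 to 177 lower and 242 to 376 higher genes (105 to 177 and 242 to 374 at both days). RLE and upper-quartile scaling, TMM without Lars2 and hemoglobin genes, a filter on the mean, DESeq2, limma, the additive model, the depth term and leaving out day 8 libraries 1 to 3 gave 109 to 197 lower genes. No named gene reversed, and 38 of 73 kept their call in every setting run.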

Other observations

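Under a filter on the mean level over all libraries, which kept 7195 genes, 150 genes were lower, and 26 of these were not among the 4112 genes tested in the report. Those given here were named after their values were seen. Col10a1, the collagen of cartilage that turns to bone, had 2 counts in all ligated and 147 in all sham animals, a ratio of 0.0126 (95% exact interval 0.00152 to 0.0465, counting error only). It was found in 2 of 12 ligated and 8 of 12 sham libraries, with 0 against 118 counts at day 8 and 2 against 29 at day 15. Col2a1 (-2.91, SE 0.59, adjusted p = 0.00146) and Sparc (-0.78, SE 0.19, adjusted p = 0.0095) were also lower under that filter, in edgeR. Other genes of the cartilage and bone list were not tested there. Among these were Acan with 6 against 33 counts, Chad with 4 against 25 and Comp with 12 against 31. Sox9 had 28 against 21, Runx2 48 against 44, Alpl 23 against 24 and Dmp1 5 against 2. The B cell genes Fcmr (-1.52, SE 0.40, adjusted p = 0.0152) and Fcrla (-1.42, SE 0.35, adjusted p = 0.0101), the fibroblast receptor gene Pdgfra (-1.07, SE 0.34, adjusted p = 0.0474) and Col6a3 (-1.18, SE 0.29, adjusted p = 0.00838) were lower in edgeR under that filter.

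Heart genes differed in direction under it. Tnni3, the troponin I of heart, fell by 2.16 (SE 0.56, adjusted p = 0.015, edgeR), with 29 counts in ligated and 90 in sham animals. Myh7, the slow myosin heavy chain of heart and slow muscle, rose by 3.43 (SE 0.77, adjusted p = 0.00409, edgeR), with 99 counts in 9 ligated libraries, of which ligated animal 2 of day 15 held 39, and 7 counts in 6 sham libraries. Nppa had 1 count in ligated and 21 in sham animals, 18 of those in day 15 sham animal 1.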
